A study of Mus musculus with 12 samples.

Results

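The genes described here are the mouse Slc25a genes, which encode the carriers of the mitochondrial inner membrane, followed in wild-type embryonic stem cells (ESCs) and in ESCs without DGCR8. Of 47 protein-coding genes whose symbol begins with Slc25a, 35 reached at least 3 CPM (read counts scaled to the size of the library) in at least 3 of the 12 libraries and were tested, among 14033 genes tested in all. Measured values chose them: the CPM minimum, and the loss of mRNA stability that Slc25a25 and Slc25a33 showed in the knockout, for which the family was picked. These 2 genes are therefore given as values with no test, and the counts of changed genes refer to the other 33. Just inside the minimum lay Slc25a24, which reached 3 CPM in 4 libraries, and just outside lay Slc25a45, which reached it in 1.

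The study labelled mouse ESCs of 2 genotypes, wild type (WT) and DGCR8 KO, with 500 uM 4-thiouridine (4sU) for 30 minutes, and sequenced total RNA and the captured 4sU-labelled RNA, 3 libraries each. All cells, controls included, were grown in serum with LIF and the MEK and GSK3 inhibitors of 2i medium, and all received 4sU. Reads in the 4sU libraries are read as nascent RNA, and the log2 ratio of total to 4sU reads as relative mRNA stability, so that a change in stability is the change in total RNA minus the change in nascent RNA. DGCR8 binds primary miRNA transcripts and guides their cutting by Drosha, so cells without it make almost no miRNAs. The labels give neither the number of knockout clones nor whether replicates were separate cultures, so the p-values measure the spread between these libraries. Below, a culture means only the same-numbered 4sU and total libraries of a genotype. A lower level in bulk RNA cannot tell fewer cells expressing a gene from less RNA in each cell.

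Mitochondrial carriers are encoded in the nucleus, made in the cytosol and inserted into the inner membrane by the TIM22 complex. Each moves a small set of substrates, often in exchange: ADP for ATP, phosphate, amino acids, dicarboxylates, acylcarnitines, or cofactors such as glutathione. The ADP/ATP carriers and the phosphate carrier feed ATP synthase and are the abundant members, whereas others are restricted to a few tissues. The ATP-Mg/phosphate carriers are activated by calcium and adjust the adenine nucleotide pool of the matrix, and the pyrimidine nucleotide carriers supply precursors for mitochondrial DNA and RNA.

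Total counts per library ranged from 4593914 to 9295245. Dgcr8 itself was lower in the libraries labelled knockout, at 33.3 ± 1.1 CPM (SD, n = 3) against 102 ± 9.3 CPM in total RNA (log2 change −1.60 ± 0.08 SE, limma adjusted p = 6.63e-17). All 8 ESC markers examined were expressed, with a summed level of 4687 to 4816 CPM in WT and 4803 to 4841 CPM in DGCR8 KO total RNA, and lower stability in the knockout passed the test for 5 of them in limma and 3 in edgeR, where limma called 11.1% of all genes. Of 8 fibroblast markers 1 reached 3 CPM in any library, Pdgfra, at 0.948 CPM in WT and 4.55 CPM in DGCR8 KO total RNA, and 2 had no read. Of 8 germ layer markers 3 reached 3 CPM, and their list summed to 16.2 to 21.4 CPM in WT and 21.7 to 22.5 CPM in DGCR8 KO total RNA. The part of these other cell types in the results was not tested.

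The members changed in level in both directions without DGCR8. In total RNA 8 of the 33 members rose and 16 fell at an adjusted p under 0.05 in limma with voom weights, that is 24.2% and 48.5%, where 27.2% of all genes tested rose and 36.7% fell. The change exceeded 1 on the log2 scale, the limit of the study, for 3 members that rose (Slc25a24, Slc25a14 and Slc25a40) and 3 that fell (Slc25a35, Slc25a4 and Slc25a2), beside 9.33% and 7.82% of all genes. Without Slc25a24 and Slc25a35, which passed the CPM minimum in 1 genotype only and so had to differ, 7 rose and 15 fell of 31. In nascent RNA 11 members rose and 10 fell of 33, beside 28.3% and 28% of all genes. Past the limit of 1 were Slc25a24 and Slc25a14, which rose, and Slc25a35 and Slc25a4, which fell, beside 9.5% and 5.27% of all genes. Without Slc25a24 and Slc25a35, 10 rose and 9 fell of 31 in nascent RNA.

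The median log2 change over all 35 members was −0.27 in total RNA, from −0.32 to −0.21 when each culture was left out in turn, and −0.09 over all genes tested. In nascent RNA the median was 0.02 for the members and −0.02 for all genes. Without Slc25a25 and Slc25a33 these medians were −0.24 and 0.02. Of the 33 members, 8 rose in both kinds of RNA and 8 fell in both, 24.2% each, where 20.9% and 22.5% of all genes did. The 8 that rose include Slc25a24 and the 8 that fell include Slc25a35, which passed the CPM minimum in 1 genotype only. A further 8 fell in total RNA while their nascent RNA did not pass the test, 24.2% beside 13.4% of all genes. Among these 8 were Slc25a2 and Slc25a53, which passed the CPM minimum through nascent RNA libraries alone. The total RNA call of Slc25a36, also among them, was lost under edgeR and in other fits given below. In nascent RNA alone 3 rose, Slc25a38 and Slc25a51 among them, 9.09% beside 6.59% of all genes. None of the 33 passed the test in opposite directions, and 0.848% of all genes rose in nascent and fell in total RNA. Slc25a25 and Slc25a33, left out of the 33, were higher in nascent and lower in total RNA. This count therefore depended on leaving them out.

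In stability, 1 of 33 members rose (Slc25a40) and 8 fell, or 3.03% and 24.2%, beside 5.02% and 11.1% of all genes tested. None of these 9 changed by more than 1 on the log2 scale, a limit that 0.791% of all genes passed upwards and 0.969% downwards. Those that fell included Slc25a4, Slc25a36, Slc25a12, Slc25a13, Slc25a38, Slc25a1 and Slc25a10. The count depended on the scaling. With RLE size factors in place of TMM factors, 2 members rose (Slc25a40 and Slc25a3) and 2 fell (Slc25a4 among them), which is 6.06% in each direction where 7.48% and 6.84% of all genes were called. The median stability change over the 35 members was −0.20 and that of all genes −0.09 with TMM factors, and −0.11 and −0.0026 with RLE factors. Without Slc25a25 and Slc25a33, picked for this loss, the members' median was −0.17 with TMM factors. Below the median of all genes lay 21 of the 33 members under either scaling. Fewer members passed without both libraries of 1 culture: 5 fell without WT replicate 1 or WT replicate 3 (8.25% and 10% of all genes), 3 without WT replicate 2 (9.3%), 4 without DGCR8 KO replicate 1 or 2 (8.28% and 8.39%) and 6 without DGCR8 KO replicate 3 (10.2%).

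**Figure D1:**
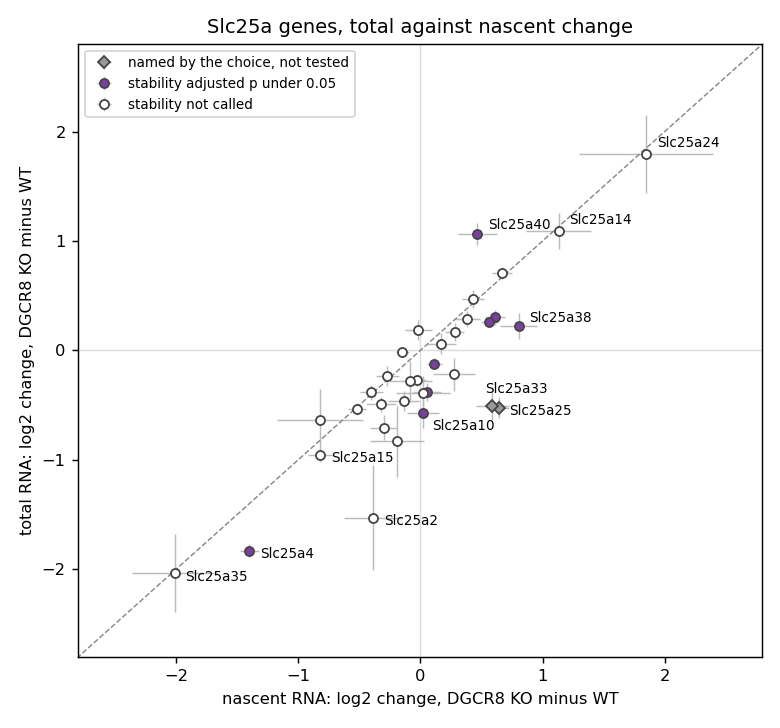
Log2 change between DGCR8 KO and WT in nascent RNA (x axis) and total RNA (y axis) for the Slc25a genes described, with bars of 1 SE; the dashed line marks equal change. Slc25a25 and Slc25a33 lie at lower right, with nascent changes of 0.64 and 0.59 and total changes of −0.52 and −0.51, while Slc25a40 lies above the line and Slc25a24, Slc25a14 and Slc25a35 lie close to it.

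Slc25a25 encodes the calcium-regulated ATP-Mg/phosphate carrier also called SCaMC-2, and its gene lies on the minus strand of chromosome 2 (chr2:32414487-32451445, GRCm38). Its 4sU libraries held 61.4, 61.9 and 59.8 CPM in WT and 101, 101 and 85.1 CPM in DGCR8 KO. Its total RNA libraries held 35.8, 42.9 and 39.2 CPM in WT and 26.0, 30.4 and 26.1 CPM in DGCR8 KO. Nascent RNA was thus higher in every knockout library than in any WT library, and total RNA lower in every one. The log2 changes were 0.64 ± 0.08 (SE) in nascent RNA, −0.52 ± 0.10 in total RNA and −1.16 ± 0.13 in stability, and 1.74% of all genes tested had a lower stability change. These values are a description, since the gene was picked for this loss.

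Slc25a33, a pyrimidine nucleotide carrier induced by growth signals (chr4:149744036-149774277, minus strand), had the same arrangement at lower levels. Its 4sU libraries held 15.3, 16.1 and 19.2 CPM in WT and 24.8, 25.4 and 25.5 CPM in DGCR8 KO. In total RNA the libraries held 15.8, 18.4 and 22.8 CPM in WT and 13.1, 14.1 and 13 CPM in DGCR8 KO. Here too the genotypes did not overlap in either kind of RNA. The log2 changes were 0.59 ± 0.14 (SE) in nascent RNA, −0.51 ± 0.13 in total RNA and −1.09 ± 0.19 in stability. Centred on the median gene, its log2 total/4sU ratio went from 0.10 in WT to −0.91 in DGCR8 KO, and that of Slc25a25 from −0.72 to −1.79.

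**Figure D2:**
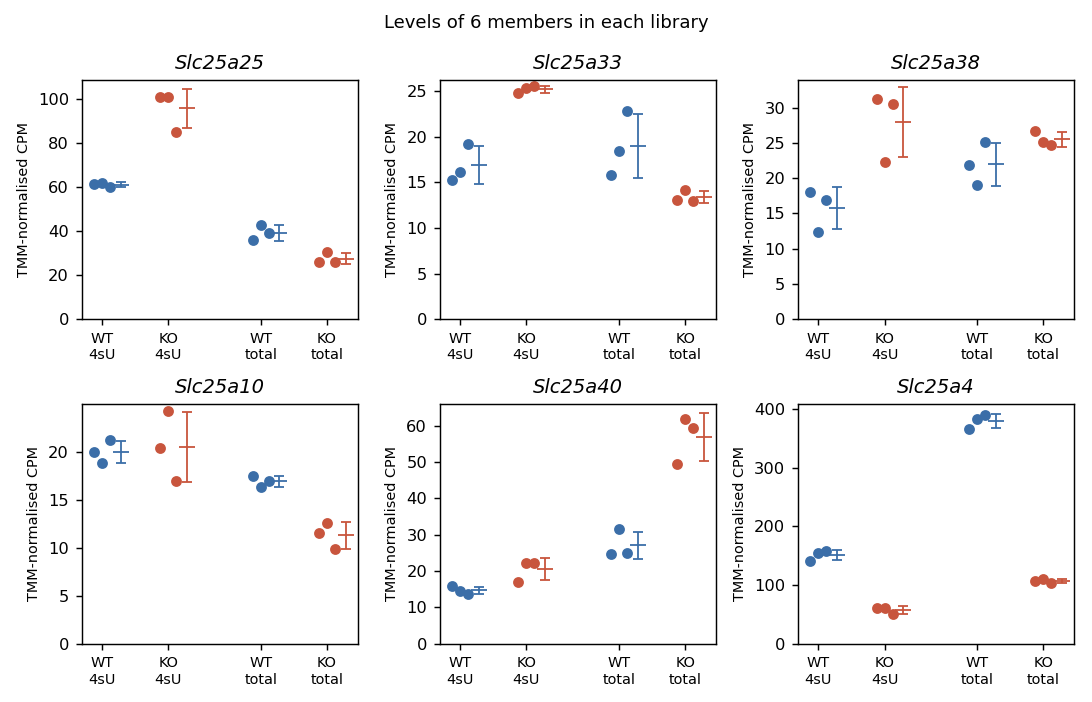
TMM-normalised CPM of 6 Slc25a genes in each of the 12 libraries (points), with the mean and SD of each group of 3 beside them; WT in blue and DGCR8 KO in red. In Slc25a25 and Slc25a33 the 4sU level was higher and the total level lower in DGCR8 KO, Slc25a38 was higher in 4sU with overlapping total levels, Slc25a10 was lower in total RNA with overlapping 4sU levels, Slc25a40 was higher in both and Slc25a4 lower in both.

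The closest relatives of these 2 genes covered a wide range of levels. Slc25a24, another calcium-regulated ATP-Mg/phosphate carrier, held 1.09, 1.83 and 0.929 CPM in WT and 3.95, 6.36 and 3.46 CPM in DGCR8 KO total RNA. Its log2 changes were 1.79 ± 0.35 (SE) in total RNA and 1.85 ± 0.55 in nascent RNA, given with no p because the gene passed the CPM minimum through knockout libraries alone. Its 4sU libraries held 1.13, 0.209 and 0.534 CPM in WT and 1.80, 2.86 and 2.09 CPM in DGCR8 KO, again without overlap. Its stability change was −0.05 ± 0.65, and the sign turned under RLE scaling. Slc25a23, a further calcium-regulated paralog, was also rare, at 5.78, 3.29 and 5.69 CPM in WT and 2.60, 3.11 and 3.46 CPM in DGCR8 KO total RNA. The genotypes overlapped, and the change of −0.64 ± 0.29 did not pass the test (limma adjusted p = 0.0534), whereas edgeR gave an adjusted p of 0.0367. Its nascent RNA fell by 0.82 ± 0.35 on the log2 scale (limma adjusted p = 0.0479), but the limma call was lost without WT replicate 1 (−0.45), DGCR8 KO replicate 2 (−0.46) or DGCR8 KO replicate 3 (−0.91). Slc25a41, next to Slc25a23 on chromosome 17, had at most 4 counts in any library.

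Slc25a36, the paralog of Slc25a33 that also carries pyrimidine nucleotides, was far more abundant. It held 347, 350 and 340 CPM in WT and 313, 313 and 328 CPM in DGCR8 KO total RNA, and 187, 192 and 175 CPM against 185, 202 and 213 CPM in 4sU RNA. The total RNA was lower in every knockout library by a small amount (log2 change −0.12 ± 0.05, limma adjusted p = 0.0337), while the 4sU levels overlapped. This call was lost under edgeR (adjusted p = 0.057), DESeq2 (adjusted p = 0.166) and limma-trend (adjusted p = 0.0746). In limma it was lost with RLE (adjusted p = 0.126), upper-quartile (0.0645) or library-size scaling (0.238). It was lost with 3 CPM in all 12 libraries (limma adjusted p = 0.0845). It was also lost without WT replicate 1 (−0.13), WT replicate 2 (−0.12), DGCR8 KO replicate 1 (−0.11) or DGCR8 KO replicate 2 (−0.11). Stability fell by 0.23 ± 0.08 on the log2 scale (limma adjusted p = 0.0346, edgeR adjusted p = 0.0455). This call was lost under DESeq2 (adjusted p = 0.309) and limma-trend (adjusted p = 0.0531). In limma it was lost with RLE (−0.15, adjusted p = 0.242), upper-quartile (adjusted p = 0.152) or library-size scaling (adjusted p = 0.0732). It was lost with no filter beyond 1 count (limma adjusted p = 0.0552). It was also lost without WT replicate 1 (−0.25), WT replicate 3 (−0.21), DGCR8 KO replicate 2 (−0.22) or DGCR8 KO replicate 3 (−0.22).

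Among the abundant members, the ADP/ATP carrier gene Slc25a4 showed the largest change. Slc25a4 encodes ANT1, the isoform that prevails in heart and muscle (chr8:46206797-46211284, minus strand). Its total RNA libraries held 366, 383 and 389 CPM in WT and 107, 111 and 103 CPM in DGCR8 KO, and its 4sU libraries 141, 155 and 158 CPM against 61.0, 60.9 and 50.3 CPM. The genotypes stood far apart in both. Slc25a4 fell by 1.83 ± 0.06 (SE) on the log2 scale in total RNA (limma adjusted p = 1.66e-22), by 1.40 ± 0.08 in nascent RNA (limma adjusted p = 6.07e-16) and by 0.43 ± 0.10 in stability (limma adjusted p = 0.00213). The fall in stability passed the test in all 16 alternative fits.

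Slc25a5, which encodes ANT2, the isoform of proliferating cells, changed less. Its total RNA libraries held 263, 256 and 257 CPM in WT and 198, 224 and 223 CPM in DGCR8 KO, a log2 change of −0.27 ± 0.06 (limma adjusted p = 8.98e-05). Its nascent change of −0.03 ± 0.08 did not pass the test (limma adjusted p = 0.768). Slc25a3, the phosphate carrier, held 424, 410 and 436 CPM in WT and 418, 428 and 412 CPM in DGCR8 KO total RNA. Its levels overlapped there, with a log2 change of −0.01 ± 0.05 whose sign turned under RLE scaling, and its nascent RNA fell by 0.15 ± 0.06 on the log2 scale (limma adjusted p = 0.0252), a call lost without WT replicate 3 (−0.12), DGCR8 KO replicate 1 (−0.11) or DGCR8 KO replicate 2 (−0.11). Its stability change of 0.13 ± 0.07 passed the test with RLE scaling alone among the TMM, RLE, upper-quartile and unscaled fits (0.22, limma adjusted p = 0.0338). Slc25a31, the ADP/ATP carrier of the male germ line, had at most 9 counts in any library.

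Per length these 3 genes were the highest members in WT total RNA, at 218 ± 6.9 CPM per kb (SD, n = 3) for Slc25a3, 208 ± 2.8 for Slc25a5 and 197 ± 6.2 for Slc25a4. In DGCR8 KO the same levels were 215 ± 4.1, 173 ± 12 and 55.5 ± 2.0 CPM per kb. Slc25a4 made up 47.3%, 49.0% and 49.4% of the summed level per length of the 2 ADP/ATP carriers in WT total RNA, and 25.7%, 24.1% and 22.9% in DGCR8 KO. In 4sU RNA its share was 52.8% ± 1.6 (SD, n = 3) in WT and 30.1% ± 0.68 in DGCR8 KO. The shares did not overlap in either kind of RNA (exact two-sided permutation p = 0.1 for each, the smallest that 3 against 3 allows). Only uniquely mapped reads were counted, so reads that these genes share with each other or with processed pseudogenes are missing. Levels between these genes are uncertain to that extent. Whether the loss was equal in all libraries was not measured.

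**Figure D3:**
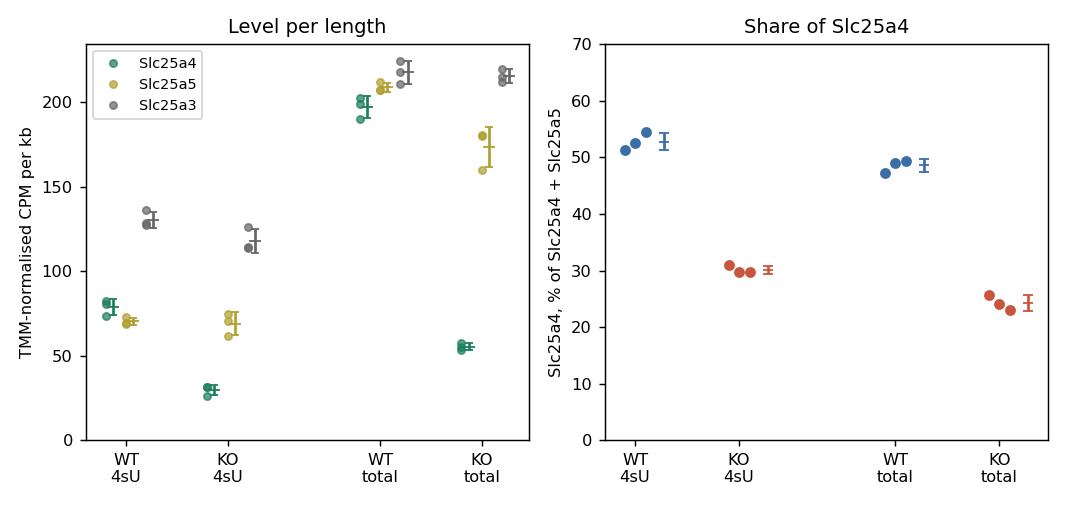
Left, level per length of Slc25a4, Slc25a5 and Slc25a3 in TMM-normalised CPM per kb, with points for the 3 libraries of each group and bars of mean and SD. Right, Slc25a4 as a percentage of Slc25a4 plus Slc25a5 per length in each library, WT in blue and DGCR8 KO in red; the total RNA share was near 48.6% in WT and 24.3% in DGCR8 KO.

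Among the amino acid carriers, 7 of 10 were tested. In total RNA 2 rose and 3 fell (27.2% and 36.7% of all genes), in nascent RNA 3 rose and 1 fell (28.3% and 28% of all genes), and in stability 3 fell (11.1% of all genes). The aspartate/glutamate carriers of the malate-aspartate shuttle moved apart. Slc25a13 (citrin) held 320, 325 and 318 CPM in WT and 383, 373 and 397 CPM in DGCR8 KO total RNA, a rise of 0.26 ± 0.05 on the log2 scale (limma adjusted p = 2.68e-05), with a nascent rise of 0.56 ± 0.07 (limma adjusted p = 2.38e-08). Slc25a12 (aralar) held 44.3, 42.1 and 42.1 CPM in WT and 31.7, 32.4 and 34.8 CPM in DGCR8 KO, a change of −0.38 ± 0.08 (limma adjusted p = 0.000158), with a nascent change of 0.06 ± 0.11. Neither pair of total RNA groups overlapped. Both fell in stability, Slc25a12 by 0.43 ± 0.14 and Slc25a13 by 0.31 ± 0.08 on the log2 scale (limma adjusted p = 0.0298 and 0.0103), and both calls were lost with RLE scaling. That of Slc25a13 was also lost without WT replicate 2 (−0.27) or DGCR8 KO replicate 2 (−0.28).

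Slc25a38, which imports glycine for heme synthesis, rose in nascent RNA without a matching rise in total RNA. Its 4sU libraries held 18, 12.3 and 16.9 CPM in WT and 31.2, 22.3 and 30.5 CPM in DGCR8 KO, which did not overlap. In total RNA it held 21.9, 19.0 and 25.1 CPM in WT and 26.6, 25.2 and 24.7 CPM in DGCR8 KO, which did. The log2 changes were 0.80 ± 0.15 in nascent RNA (limma adjusted p = 4.04e-05), 0.22 ± 0.12 in total RNA (limma adjusted p = 0.107) and −0.58 ± 0.19 in stability (limma adjusted p = 0.0369), the last lost with RLE scaling (−0.49, adjusted p = 0.0906) and without WT replicate 2 (−0.55), WT replicate 3 (−0.52), DGCR8 KO replicate 1 (−0.54) or DGCR8 KO replicate 3 (−0.49). Without WT replicate 3 the change in total RNA, 0.33, passed the test.

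Slc25a15, the ornithine carrier of the urea cycle, fell in both kinds of RNA, with log2 changes of −0.96 ± 0.07 in total and −0.82 ± 0.10 in nascent RNA (limma adjusted p = 6.62e-14 and 2.57e-08). Its paralog Slc25a2, an ornithine carrier gene that overlaps 3 protein-coding gene models on the opposite strand, was read mostly in 4sU RNA, at 5.95, 9.62 and 7.29 CPM in WT and 6.20, 4.58 and 6.09 CPM in DGCR8 KO. In total RNA it held 1.72, 2.19 and 1.28 CPM in WT and 0.903, 0.519 and 0.289 CPM in DGCR8 KO, a fall of 1.53 ± 0.48 on the log2 scale (limma adjusted p = 0.00625). No total RNA library reached 3 CPM, and its stability change of −1.14 ± 0.54 did not pass the test (limma adjusted p = 0.156). Slc25a44, a carrier of branched-chain amino acids, rose by 0.47 ± 0.08 in total RNA and 0.43 ± 0.09 in nascent RNA on the log2 scale (limma adjusted p = 5.88e-06 and 0.000158). The glutamate carrier Slc25a22 passed no test.

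Of the 4 tested carriers of carboxylates and acylcarnitine, 2 rose and 2 fell in total RNA, where 27.2% and 36.7% of all genes did. The citrate carrier Slc25a1, which exports citrate for lipid synthesis, rose by 0.30 ± 0.07 on the log2 scale and the acylcarnitine carrier Slc25a20 by 0.71 ± 0.06 (limma adjusted p = 0.00016 and 1.34e-12). The dicarboxylate carrier Slc25a10 fell by 0.58 ± 0.13 and the oxoglutarate carrier Slc25a11 by 0.38 ± 0.07 (limma adjusted p = 0.000383 and 1.89e-05). Nascent RNA rose for Slc25a1 and Slc25a20, by 0.61 ± 0.08 and 0.67 ± 0.08, fell for Slc25a11, by 0.40 ± 0.09, and stood at 0.02 ± 0.13 for Slc25a10, whose sign turned under RLE scaling.

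Slc25a10 held 17.5, 16.3 and 17 CPM in WT and 11.5, 12.6 and 9.81 CPM in DGCR8 KO total RNA, with no overlap, and 19.9, 18.8 and 21.2 CPM against 20.4, 24.2 and 16.9 CPM in 4sU RNA, with overlap. Its stability fell by 0.60 ± 0.19 on the log2 scale (limma adjusted p = 0.0272), a call lost with RLE scaling (−0.51, adjusted p = 0.0722) and without WT replicate 1 (−0.58), WT replicate 2 (−0.59), DGCR8 KO replicate 1 (−0.62) or DGCR8 KO replicate 2 (−0.55). Slc25a1 fell in stability by 0.31 ± 0.10 (limma adjusted p = 0.0422), also lost with RLE scaling. Slc25a11 and Slc25a20 had stability changes of 0.02 and 0.04.

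The 11 carriers of cofactors, glutathione and iron were all tested. In total RNA 1 rose and 5 fell, beside 27.2% and 36.7% of all genes, and in nascent RNA 3 rose and 4 fell, beside 28.3% and 28%.

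Slc25a40, a carrier of glutathione into the matrix, rose. Its total RNA libraries held 24.8, 31.5 and 24.9 CPM in WT and 49.4, 61.8 and 59.5 CPM in DGCR8 KO, and its 4sU libraries 15.8, 14.6 and 13.7 CPM against 17, 22.1 and 22.3 CPM. Neither pair overlapped. It rose by 1.06 ± 0.10 on the log2 scale in total RNA, by 0.47 ± 0.16 in nascent RNA and by 0.59 ± 0.19 in stability (limma adjusted p = 8.25e-11, 0.0152 and 0.0302). The nascent call was lost without WT replicate 3 (0.41), DGCR8 KO replicate 2 (0.42) or DGCR8 KO replicate 3 (0.42). The stability call was lost without WT replicate 1 (0.49, adjusted p = 0.176), without WT replicate 3 (0.57, adjusted p = 0.0711) and without DGCR8 KO replicate 2 (0.58, adjusted p = 0.0718). Its paralog Slc25a39, the better known glutathione carrier, held 233, 238 and 243 CPM in WT and 160, 168 and 164 CPM in DGCR8 KO total RNA. It fell by 0.54 ± 0.05 in total RNA and by 0.52 ± 0.07 in nascent RNA on the log2 scale (limma adjusted p = 1.91e-10 and 6.36e-07). The log2 ratio of Slc25a39 to Slc25a40 per length went from 3.87 ± 0.20 (SD, n = 3) in WT to 2.26 ± 0.14 in DGCR8 KO total RNA (p = 0.1 in an exact permutation test, two-sided, its lower limit, and 0.117 adjusted over 14 ratios in 7 pairs chosen after the values were seen).

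The mitoferrins, which import iron, differed: Slc25a37 (mitoferrin 1) fell by 0.70 ± 0.12 on the log2 scale in total RNA (limma adjusted p = 4.03e-06), and Slc25a28 (mitoferrin 2) stood at 0.19 ± 0.09 (limma adjusted p = 0.0654). Slc25a17, a peroxisomal carrier of CoA and related cofactors, fell by 0.49 ± 0.07, Slc25a26, the S-adenosylmethionine carrier, by 0.39 ± 0.16, and Slc25a32, a folate and flavin carrier, by 0.24 ± 0.09 (limma adjusted p = 1.44e-07, 0.031 and 0.0236). Slc25a51, which carries NAD, rose in nascent RNA by 0.28 ± 0.08 (limma adjusted p = 0.0024). Slc25a16 and Slc25a42, linked to CoA, passed no test.

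Among the uncoupling protein-like carriers, Slc25a14 held 7.81, 6.71 and 5.23 CPM in WT and 15, 12.8 and 13 CPM in DGCR8 KO total RNA, and 3.38, 2.93 and 3.38 CPM against 6, 7.06 and 8.76 CPM in 4sU RNA. It rose by 1.09 ± 0.16 in total RNA and 1.13 ± 0.27 in nascent RNA on the log2 scale (limma adjusted p = 5.8e-07 and 0.000611), with a stability change of −0.04 ± 0.31 whose sign turned under RLE scaling. Its paralog Slc25a30 fell by 0.46 ± 0.09 in total RNA (limma adjusted p = 6.63e-05). Slc25a27 had at most 12 counts in any library.

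Of the carriers with other or unsettled substrates, Slc25a35 held 4.37, 3.66 and 3.72 CPM in WT and 1.24, 0.908 and 0.577 CPM in DGCR8 KO total RNA. Its log2 changes were −2.04 ± 0.36 (SE) in total RNA and −2.01 ± 0.35 in nascent RNA, given with no p because the gene passed the CPM minimum through WT libraries alone. Slc25a46, an outer membrane protein of mitochondrial fission, rose by 0.29 ± 0.08 in total RNA (limma adjusted p = 0.00135). Slc25a53 reached 3 CPM in 4sU libraries alone. In total RNA it held 2.65, 2.8 and 2.56 CPM in WT and 1.58, 1.69 and 1.16 CPM in DGCR8 KO, a fall of 0.83 ± 0.33 on the log2 scale (limma adjusted p = 0.0261), a call lost without WT replicate 2 (−0.80), DGCR8 KO replicate 1 (−0.88) or DGCR8 KO replicate 3 (−0.68).

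**Figure D4:**
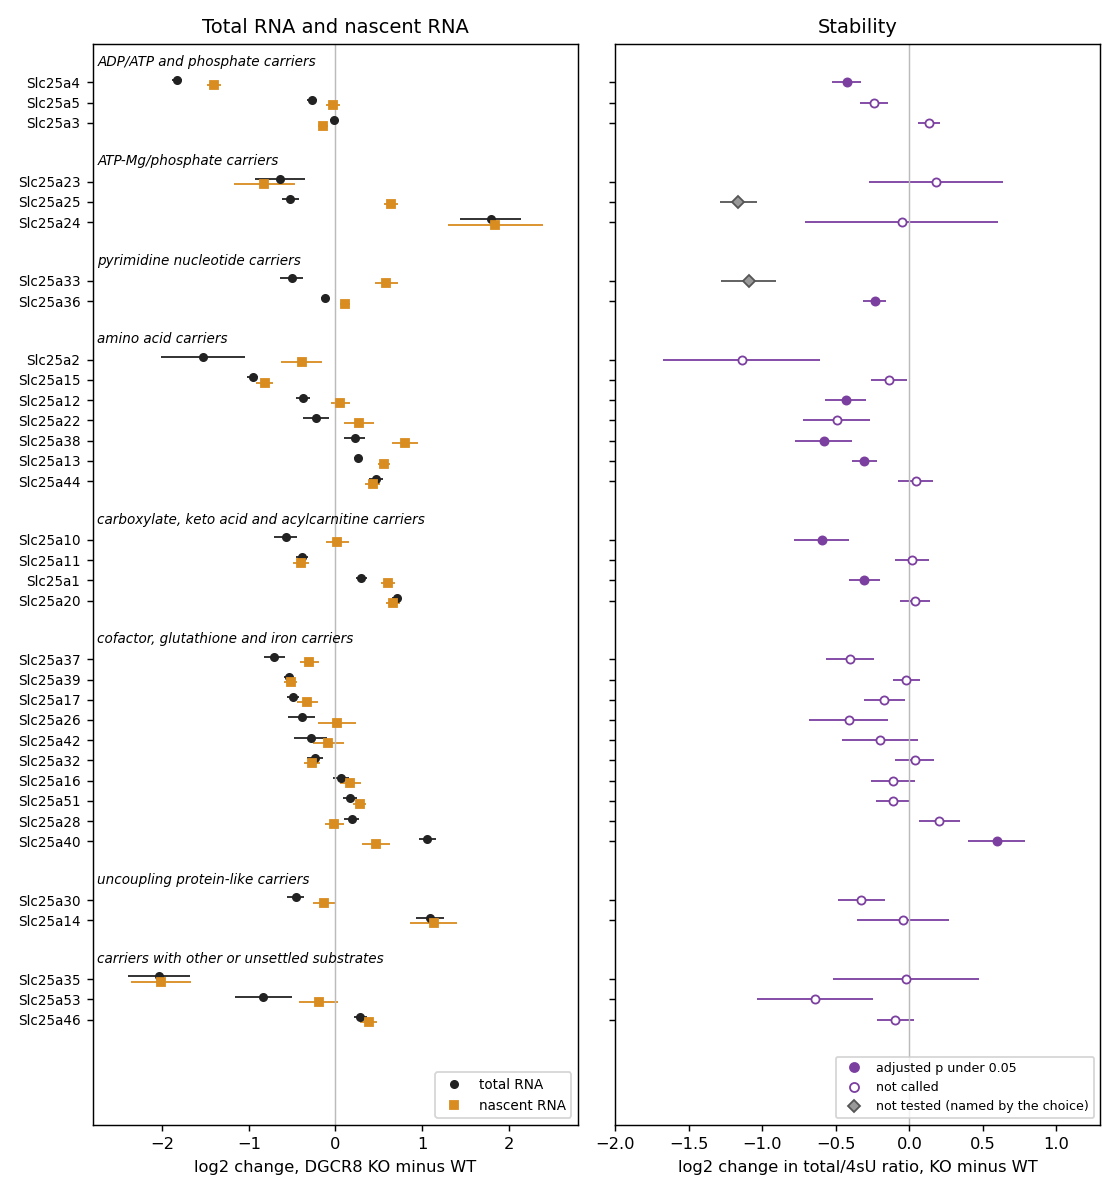
Left, log2 change between DGCR8 KO and WT in total RNA (black circles) and nascent RNA (orange squares) for the Slc25a genes described, grouped by substrate. Right, the change in the total/4sU ratio, filled where the limma adjusted p was under 0.05; bars are 1 SE. Of the filled points, that of Slc25a40 alone lies above 0.

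The 12 genes that did not reach the CPM minimum were Slc25a18, Slc25a21, Slc25a27, Slc25a29, Slc25a31, Slc25a34, Slc25a41, Slc25a43, Slc25a45, Slc25a47, Slc25a48 and Slc25a54. Slc25a54, which lies beside Slc25a24 on chromosome 3, had no read in any library, and Slc25a21 had 3 counts in all. Slc25a43, beside Slc25a5 on the X chromosome, had at most 26 counts, or 2.8 CPM, in any library.

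In WT cells the members spanned a wide range of relative stability. Their median log2 total/4sU ratio lay 0.45 above the median of all genes tested, with medians of 0.28, 0.51 and 0.48 in the 3 same-numbered library pairs, while protein-coding genes as a whole lay 0.23 above it. Slc25a13 was the highest member, at 1.74 ± 0.06 (SD, n = 3), above 95.6% of all genes, followed by Slc25a17 at 1.61 ± 0.13 and Slc25a5 at 1.48 ± 0.07. Slc25a13 and Slc25a17 differed by no more than their spread. The lowest were Slc25a2, at −2.17 ± 0.36, and Slc25a53, at −1.38 ± 0.32, both below 3 CPM in total RNA, and then Slc25a51, at −0.98 ± 0.12. Slc25a2 and Slc25a53 passed the CPM minimum through 4sU libraries alone, so their ratios had to be low. Slc25a25 stood at −0.72 ± 0.12 and Slc25a33 at 0.10 ± 0.10. The value of Slc25a24 was 0.93 ± 1.35, a spread larger than the value itself. In the unfiltered table the family's median was 0.86, and among genes with 3 CPM in all libraries it was 0.27, so this value depended on the filter.

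**Figure D5:**
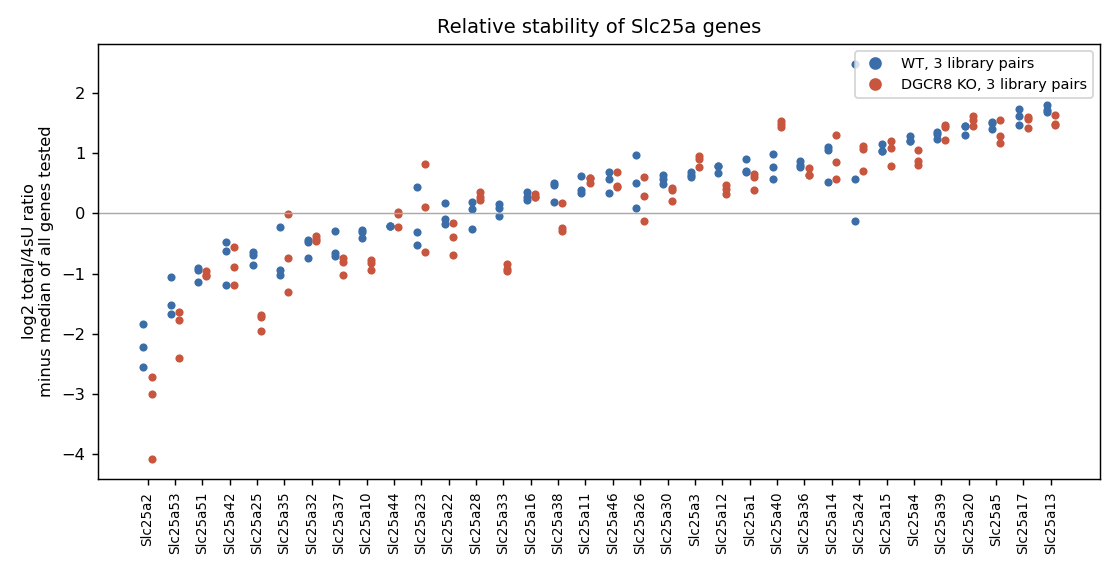
Log2 ratio of total to 4sU reads, less the median of all genes tested, for the Slc25a genes described, ordered by their WT value; each point is 1 same-numbered library pair, WT in blue and DGCR8 KO in red. The WT values run from −2.17 for Slc25a2 to 1.74 for Slc25a13, and the red points of Slc25a25 and Slc25a33 lie below the blue ones. Slc25a2 and Slc25a53 passed the CPM minimum through 4sU libraries alone.

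Many of the miRNAs that prevail in mouse ESCs belong to the miR-290 and miR-302 clusters and have like seeds, the bases 2 to 8 by which a miRNA pairs with its target. Among the sequences found in the reference used, 5 had the seed AAGUGCU (RefSeq, GRCm38.p6). They are printed with it in capitals, since DGCR8 is needed to make them. The list may miss members of the clusters, since miR-302a was not among the sequences found. Levels of these 5 miRNAs were not measured in these libraries. In the study's reporter line, naive ESCs were negative for the miR-302 reporter and positive for the miR-290 reporter.
mmu-miR-291a-3p: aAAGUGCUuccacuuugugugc
mmu-miR-294-3p: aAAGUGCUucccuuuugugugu
mmu-miR-295-3p: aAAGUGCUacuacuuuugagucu
mmu-miR-302b-3p: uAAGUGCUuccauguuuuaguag
mmu-miR-302d-3p: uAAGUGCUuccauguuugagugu

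The longest annotated 3′ UTR of each gene (GENCODE M21) was searched on the transcript strand for the matches of that seed, AGCACTT or GCACTTA, which overlap in the 8mer AGCACTTA. A match was found in 4 of the 35 members, 11.4%, and in 21.4% of the 11806 tested protein-coding genes with a 3′ UTR. Neither Slc25a25 nor Slc25a33 had one. The members' matches in the counted gene span are given with the match in capitals, 5′ to 3′ on the transcript (GRCm38): Slc25a40 at chr5:8454554-8454582 on the plus strand, Slc25a16 at chr10:62945495-62945523 on the plus strand and Slc25a10 at chr11:120498620-120498648 on the plus strand.
Slc25a40: ataaagcaaaaAGCACTTtatcacgtttt
Slc25a16: gtggtttgagaAGCACTTccttccttgcg
Slc25a10: gcacacacacaAGCACTTtgtcacaagag

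The stability changes of these 3 were 0.59, −0.11 and −0.60, so the only member whose stability rose held a match, and so did 1 that fell. The fourth, Slc25a32, held an 8mer and a 7mer beyond the end of the gene span in which reads were counted, and its stability change was 0.04. Across all tested protein-coding genes the median stability change was 0.03 with a match and −0.13 without. A match is a description of the letters and not evidence of binding.

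AU-rich elements, searched as TATTTAT in the same 3′ UTRs, occurred in 16 of the 35 members, 45.7%, and in 30.7% of tested protein-coding genes. This search was added after the values were seen. Slc25a25 and Slc25a46 held 3 copies, a number reached by these 2 members and by 4.03% of tested protein-coding genes, and Slc25a33 held none. The stability change of Slc25a46 was −0.09 ± 0.13 (limma adjusted p = 0.68). A link between these elements and stability was not tested. The copies in Slc25a25 lie at chr2:32415109-32415137, chr2:32415098-32415126 and chr2:32415010-32415038 on the minus strand (GRCm38), within its 1651-base 3′ UTR, and are shown in that order with the element in capitals.
Slc25a25 copy A: tgcttggagccTATTTATtttgtatttat
Slc25a25 copy B: tatttattttgTATTTATttgaacagagt
Slc25a25 copy C: ttttttattcaTATTTATgttcatggttg

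Other genes of carrier biogenesis and mitochondrial transport gave a background for these values. Of the 3 tested SLC25 proteins with other symbols, the uncoupling protein Ucp2 rose in nascent RNA by 0.69 ± 0.08 on the log2 scale while its total RNA stood at 0.08 ± 0.09, and its stability fell by 0.61 ± 0.12 (limma adjusted p = 0.000313). Mtch1, an outer membrane protein, also fell in stability, by 0.42 ± 0.12 (limma adjusted p = 0.0148), and Mtch2, an outer membrane insertase, fell in total RNA by 0.42 ± 0.05 (limma adjusted p = 1.41e-08).

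Of 10 genes that bring carriers to the inner membrane, 1 rose and 8 fell in total RNA, 1 rose and 3 fell in nascent RNA, and none rose and 4 fell in stability. The shares of all genes were 27.2% and 36.7%, 28.3% and 28%, and 5.02% and 11.1% in the same order. The small chaperones of the intermembrane space Timm8b and Timm13 fell by 1.00 ± 0.08 and 1.01 ± 0.08 on the log2 scale in total RNA (limma adjusted p = 8.43e-13 and 9.55e-13) and by 0.83 ± 0.13 and 0.86 ± 0.12 in stability (limma adjusted p = 2.18e-05 and 5.07e-06). Agk, the kinase subunit of the TIM22 complex, rose by 0.82 ± 0.09 (limma adjusted p = 1.34e-09).

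Of 17 tested genes for other mitochondrial transporters and channels, 6 rose and 6 fell in total RNA, 6 rose and 4 fell in nascent RNA, and 2 fell in stability, against the same shares of all genes. Of the calcium uniporter, the regulatory subunit Micu2 rose by 1.49 ± 0.15 in total RNA and the pore subunit Mcu by 1.15 ± 0.14 in nascent RNA on the log2 scale (limma adjusted p = 4.21e-10 and 2.02e-08). In total RNA Mcu rose by 0.74 ± 0.08, whereas the subunit Smdt1 fell by 0.47 ± 0.08 (limma adjusted p = 1.66e-09 and 1.79e-06). Sfxn3, a sideroflexin, rose by 1.47 ± 0.12, and Abcb10, an ABC transporter of erythroid heme synthesis, fell by 1.10 ± 0.08 (limma adjusted p = 2.22e-12 and 1.14e-13). Of 12 tested regulators of mitochondrial gene expression, 1 rose and 7 fell in total RNA, 1 rose and 5 fell in nascent RNA, and 1 rose and 4 fell in stability, again against those shares. Tfam, which packages and transcribes mitochondrial DNA, fell by 1.01 ± 0.07 in total RNA (limma adjusted p = 1.54e-14), and Tfb2m rose in stability by 1.05 ± 0.30 (limma adjusted p = 0.0125). The total RNA of Tfb2m was low, at 3.3 ± 1.3 CPM (SD, n = 3) in WT and 5.6 ± 1.2 CPM in DGCR8 KO.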

How the data were processed

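The deposited values are raw read counts per gene with the summed exon length of each gene model, another deposited column used for levels per kb. Per the study's methods and the submitters' processing notes, the authors made these counts with cutadapt 1.14, STAR 2.5.3a (uniquely mapped reads, mm10) and featureCounts 1.5.3 on GENCODE M14 with strand setting 2, after removal of rRNA annotations. Of 51559 features, 92 were spike-in rows holding 1 count in all, and 51274 were matched to symbols of GENCODE M21, which also gave the 3′ UTRs. Genes with at least 3 CPM in at least 3 of 12 libraries were scaled by TMM (edgeR 4.0.16) and fitted with limma-voom (limma 3.58.1, R 4.3.3), with 1 coefficient per library type and genotype and an interaction contrast for stability, and adjusted by Benjamini-Hochberg over all genes tested. The fits were tested on simulated data. edgeR quasi-likelihood, DESeq2 1.42.0, limma-trend, other scalings and filters, replicate blocks and leaving out each culture were alternatives. For several genes only some of the alternatives in which a call was lost are named. Same-numbered WT and DGCR8 KO libraries did not deviate together (r from −0.18 to 0.15), so the fits were unpaired.

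The members and lists were chosen with earlier results of these data known. Full values were due for Slc25a25, Slc25a33 and their paralogs, members past an absolute log2 change of 1, the 3 largest rises and falls per contrast, and the extremes of level and WT stability; other members were named to account for the family, after their values were seen. Some genes named by this rule are not reported here, although the counts include them. The planned protein comparison was not run and protein sequences were not used here. CPM intervals cover the spread between libraries only.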

Additional observations from a re-analysis of the deposited data

How the results depend on the processing

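Counts of members that passed the test were 24 in total RNA, 21 in nascent RNA and 9 in stability. With an absolute log2 change over 1 they were 6, 4 and 0. The stability count was 4 under DESeq2, RLE and upper-quartile scaling, 3 with no filter beyond 1 count, and 4 to 7 without each culture. With the replicate number as a block, or the culture as a block, the counts were 25, 21 and 9, and among the named results the block changed the call of Slc25a23 in total RNA alone, which then passed (−0.7625 and −0.6455). Same-numbered 4sU and total libraries of a genotype come from split RNA per the study's methods (within-culture correlation 0.0983), whereas WT and DGCR8 KO libraries share only a number. The family median moved to −0.2065 in total RNA and 0.0942 in nascent RNA with 3 CPM in all 12 libraries, and to −0.1001 (DESeq2), −0.114 (RLE) and −0.1363 (upper quartile) in stability. Without each culture these medians ran from −0.3169 to −0.2058, from 0.0116 to 0.0851 and from −0.2532 to −0.1882. The WT relative stability median was 0.8602 with no filter, 0.2665 with 3 CPM in all 12 libraries, and 0.3379 to 0.4874 without each culture.

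Signs turned only for changes that passed no test. In stability, Slc25a24 stood at 0.07094 (edgeR), 0.1348 (DESeq2), 0.05426 (limma-trend), 0.03862 (RLE) and 0.01493 (upper quartile), and −0.6583 to 0.6801 without each culture. Slc25a35 stood at 0.05443 (edgeR), 0.1324 (DESeq2), 0.06785 (limma-trend), 0.065 (RLE), 0.04038 (upper quartile) and 0.00233 (library size only), and −0.3919 to 0.2643 without each culture. Slc25a14 stood at 0.04875 (RLE) and 0.02643 (upper quartile), and −0.2529 to 0.1249 without each culture, where Slc25a23 ran from −0.1994 to 0.538. In total RNA, Slc25a3 stood at 0.01764 (DESeq2), 0.01806 (RLE), 0.003008 (upper quartile), 0.03896 (library size only), 0.01867 (no filter) and 0.006691 (3 CPM in all 12 libraries), and −0.04721 to 0.01018 without each culture. In nascent RNA, Slc25a10 stood at −0.02035 (DESeq2), −0.03748 (RLE) and −0.02817 (upper quartile), and −0.09757 to 0.1718 without each culture, and Slc25a5 at −0.07759 to 0.06819 without each culture. The cause was not tested. Of 798 alternative values for 51 named gene results, 676 were counted as unchanged. For tested genes this meant the same direction and the same side of the threshold. For Slc25a25 and Slc25a33 it meant the same direction and a shift below 1 SD of the 3 differences between same-numbered libraries. Members under 3 CPM in a group (Slc25a2, Slc25a23, Slc25a24, Slc25a35 and Slc25a53) are limited by depth.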

Other observations

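Summed per length over the 35 members, the family's level was 1369, 1384 and 1386 CPM per kb in WT total RNA and 1178, 1226 and 1197 CPM per kb in DGCR8 KO. In 4sU RNA the sums were 684.5, 694.1 and 711.3 CPM per kb in WT and 686.0, 691.5 and 680.6 CPM per kb in DGCR8 KO. The total RNA sums did not overlap, and the 4sU sums did. Among single genes tested, 29.2% were higher and 39.6% lower without overlap in total RNA. The mean total RNA sum changed by −179.4 CPM per kb, and that of Slc25a4 and Slc25a5 alone by −176.6 CPM per kb. The family's sum is a net value, in which falls and rises of other members offset each other. Slc25a39 also fell, from 141.2 ± 3.0 CPM per kb (SD, n = 3) in WT to 97.3 ± 2.1 in DGCR8 KO total RNA. Slc25a20 rose, from 76.4 ± 4.2 to 124.5 ± 4.3 CPM per kb. Slc25a3, Slc25a4 and Slc25a5 together made up 45.2% ± 0.58 (SD, n = 3) of the sum in WT and 37.0% ± 0.43 in DGCR8 KO total RNA.

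Paralogs with related substrates differed in balance. The log2 ratio per length of Slc25a14 to Slc25a30 in total RNA went from −2.40 ± 0.35 (SD, n = 3) in WT to −0.88 ± 0.16 in DGCR8 KO, that of the mitoferrins Slc25a28 to Slc25a37 from 1.90 ± 0.25 to 2.78 ± 0.12, and that of Slc25a12 to Slc25a13 from −3.93 ± 0.05 to −4.57 ± 0.04. The groups did not overlap in 12 of the 14 ratios computed (p = 0.1 for each of these 12 in an exact permutation test, two-sided, its lower limit, and 0.117 after adjustment), the exceptions being both ratios of Slc25a15 to Slc25a2. Among single genes tested, 29.2% were higher and 39.6% lower without overlap in total RNA, and 29.6% and 29.4% in 4sU RNA. The share for ratios of unrelated genes was not computed. The 12 include both ratios of Slc25a23 to Slc25a24, and Slc25a24 passed the CPM minimum through knockout libraries alone. The pairs were chosen after the values were seen.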
